A study of Homo sapiens with 24 samples.

Results

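LSM14A is a cytoplasmic RNA-binding protein of processing bodies (P-bodies), the granules in which translationally repressed mRNAs gather with the proteins that repress or decay them. The genes described here are LSM14A and the partners with which it works: its paralog LSM14B, the repression factors DDX6, EIF4ENIF1 (4E-T) and PATL1, and the decapping factors EDC3, EDC4, DCP1A, DCP1B and DCP2. They were listed by symbol, by a rule that uses no measured value, although with earlier results of these data known, and were looked up in the count table through the Ensembl IDs that the GENCODE annotation of hg19 pairs with those symbols. Of the 10 symbols, 9 were matched in this way to a row in the table of 20345 gene IDs. The ID that the annotation pairs with DCP1A had no row, so DCP1A was not analysed here. Whether it lies under another ID is not known, since 708 IDs of the table matched no annotated gene. All 9 genes passed the filter on low counts in every test.

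As background, decapping removes the 5′ cap of an mRNA and opens it to degradation from that end. DCP2 is the enzyme, DCP1A and DCP1B are paralogs of its activating subunit, and EDC3 and EDC4 are enhancers that help to assemble the complex. The DEAD-box helicase DDX6 binds LSM14A, EDC3, PATL1 and EIF4ENIF1, and EIF4ENIF1 in turn binds the cap-binding protein eIF4E. PATL1 links the LSM1-7 ring on shortened poly(A) tails to decapping.

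The data came from A2058, an established human melanoma cell line, per the labels and methods, while a legend in the study names A375, another melanoma line, for the HU comparison. Cells received a control siRNA (siCTRL) or siRNA against LSM14A (siLSM14A, 20 nM of each siRNA per the methods). They were then left untreated (NT) or given 10 mM hydroxyurea (HU), an inhibitor of ribonucleotide reductase, for 2 h. Each of the 4 conditions had 3 replicates, with 1 library of total RNA and 1 library of RNA from heavy polysomes for each, 24 libraries in all. No label says that replicates came from separate cultures, so p-values measure the spread between these samples, which may be technical. The siRNA sequences are not given in the sources used here, and the labels give a single cell line. The methods also describe the heavy-polysome pool in 2 ways that differ in the number of gradient fractions, so that which fractions the polysomal and TE values cover is uncertain.

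Library totals ran from 24789280 to 40645263 counts in total RNA and from 28776634 to 44897501 in polysomal RNA. The melanocyte lineage genes SOX10 (590.3 CPM, counts per 1000000 after TMM scaling), DCT (837.1 CPM), PMEL (346.4 CPM) and MITF (119.1 CPM) were high in siCTRL NT total RNA, whereas MLANA (7.67 CPM), TYRP1 (4.52 CPM) and MIA (0.322 CPM) were low. Of the markers of fibroblasts, keratinocytes, endothelium and leukocytes, LUM was at 31.4 to 43.4 CPM in the total RNA libraries of all 4 conditions, no other exceeded 2.83 CPM, and KRT5 was at 0. Polysomal libraries differed among themselves along the GC content of the exons: the Spearman correlation across genes of a library's deviation from its group mean with GC ran from -0.69 to 0.62. The part of this GC trend in the polysomal results below was not tested, except where a GC-corrected value is given.

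Per length of their exons, the 9 mRNAs in total RNA of siCTRL NT cells spanned from 72.0 ± 3.27 TPM (transcripts scaled to length and library total; mean ± SD, n = 3) for PATL1 to 6.12 ± 0.279 TPM for DCP1B. PATL1 was followed by LSM14A (70.8 ± 1.32 TPM), LSM14B (45.7 ± 2.16), EDC3 (38.7 ± 2.24), EDC4 (30.5 ± 2.35), DDX6 (26.7 ± 1.05), EIF4ENIF1 (17.2 ± 1.43) and DCP2 (10.8 ± 0.313 TPM). PATL1 and LSM14A did not differ beyond their spread, the replicates of EDC4 (lowest 27.9 TPM) and DDX6 (highest 27.8 TPM) nearly touched, and those of the other neighbours in this order did not overlap. The order partly depended on the length used. With the longest transcript of each gene in place of its merged exons, DDX6 (37.01 TPM) stood above EDC4 (26.5 TPM), LSM14A (66.2 TPM) above PATL1 (56.3 TPM), and DCP1B (9.41 TPM) close to DCP2 (9.04 TPM). The catalytic subunit DCP2 and DCP1B were thus the least abundant mRNAs of the set by either length.

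The siRNA target was measured first. LSM14A (chr19:34663409-34720193, plus strand, hg19) had 81.6, 85.1 and 86.1 CPM in total RNA of the 3 siCTRL NT replicates and 80.9, 91.0 and 85.9 CPM in siCTRL HU. With siLSM14A it had 7.30, 8.31 and 6.95 CPM in NT and 6.60, 7.69 and 6.14 CPM in HU. The groups were far apart, and 8.92% of the siCTRL level remained in NT cells and 7.93% in HU cells. In polysomal RNA, LSM14A had 33.4, 45 and 54.4 CPM in siCTRL NT and 33.3, 29.3 and 45.1 CPM in siCTRL HU. With siLSM14A these values were 2.72, 1.90 and 1.74 CPM in NT and 2.39, 2.38 and 2.15 CPM in HU, that is 4.79% and 6.43% of siCTRL. Every library thus matched its siRNA label. In edgeR's quasi-likelihood test the log2 difference in total RNA was -3.49 in NT (SE 0.0750, adjusted p = 1.9e-09) and -3.67 in HU (SE 0.0871, adjusted p = 8.4e-11), and in polysomal RNA -4.38 (SE 0.272, adjusted p = 7.4e-05) and -3.95 (SE 0.217, adjusted p = 1.6e-06). In these 4 comparisons 0.566%, 0.802%, 0.0162% and 0.0653% of all genes tested were called at an adjusted p under 0.05, and 0.391%, 0.561%, 0.0162% and 0.0653% were called lower. In bulk RNA, fewer cells that hold an mRNA and less of it per cell cannot be told apart.

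The polysomal share of the remaining LSM14A mRNA had lower values than that of control cells, a difference that did not pass the correction for all genes. Translation efficiency (TE) was taken as polysomal over total RNA. TMM scaling centres each library, so TE is relative to the average gene and not an absolute amount on polysomes. For LSM14A the log2 TE of the replicates was -1.29, -0.92 and -0.66 in siCTRL NT and -1.39, -2.07 and -1.93 in siLSM14A NT. In HU it was -1.28, -1.63 and -0.93 with siCTRL and -1.43, -1.65 and -1.47 with siLSM14A. The siLSM14A values lay below all siCTRL values in NT, where 2.03% of 12855 genes did so, and overlapped them in HU. Averaged over NT and HU, the log2 TE difference was -0.59 (SE 0.177, unadjusted p = 0.0030 and adjusted p = 0.999 by edgeR). No gene was called in this comparison by edgeR, where 140 of 12855 genes had an unadjusted p under 0.05, and 1 gene was called by DESeq2. In siLSM14A the TE of LSM14A rests on 49 to 93 polysomal counts per library.

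The total RNA profile of LSM14A across the 12 libraries was closely followed by GTF3A (Pearson's r = 0.994), POLR2C (0.993), EIF3F (0.991) and BRI3BP (0.991), which are among the genes with the highest correlation of log2 CPM. These correlations are over 12 libraries that share the contrast of the 2 siRNAs, so they rank genes lowered with the target. A word of 7 bases, AACGGAG, was looked up in 1 transcript per gene (the canonical one, sense strand), with earlier results of these data known. It was present in 8.60% of 12612 tested genes, in 41.0% of the 200 genes called lower with siLSM14A and in 6.60% of the 197 called higher, averaged over NT and HU. Of the 9 genes described here it was found in LSM14A alone, within the coding sequence of that mRNA, and in none of the 8 partners. It was found in 4 of the 5 genes with the profiles most like that of LSM14A, and these are the 4 named above. Of the 200 genes called lower, 82 carried the word in the transcript searched. LSM14B, also called lower, did not. Each match in LSM14A and in the 4 named genes has the word in capitals between its flanks (mRNA strand, 5′ to 3′, hg19).

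LSM14A, coding, chr19:34712414-34712420, plus strand: tgacaatagagAACGGAGaccaacctggg

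GTF3A, coding, chr13:28009589-28009595, plus strand: atctcgtgaaaAACGGAGtttggcctctc

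GTF3A, coding, chr13:28009666-28009672, plus strand: ctttgtgtcaaAACGGAGagtcacccaac

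POLR2C, 3′ UTR, chr16:57505056-57505062, plus strand: gcttcagcaaaAACGGAGattcaggccag

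EIF3F, 3′ UTR, chr11:8017693-8017699, plus strand: tgactctaataAACGGAGcctaccttttg

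BRI3BP, 3′ UTR, chr12:125510032-125510038, plus strand: cagaaaacgaaAACGGAGgaaaaaaaccc

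A match is a description of these letters in these transcripts, and its part in the lower levels was not tested.

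**Figure D1:**
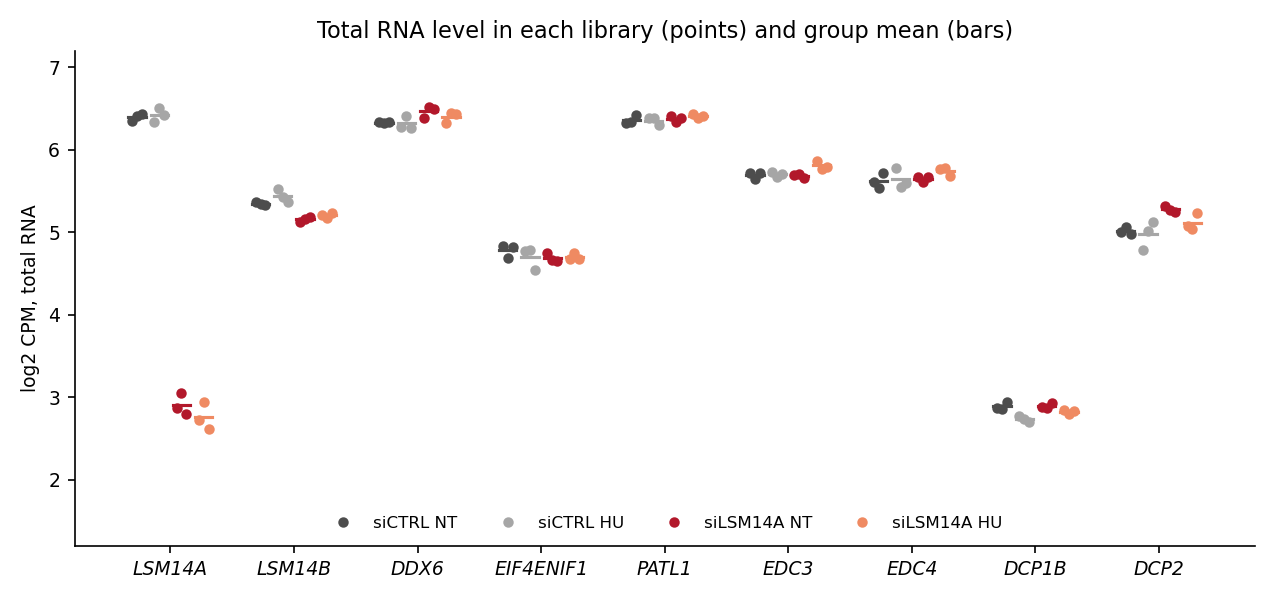
Total RNA level of the 9 genes in each library, as log2 CPM (y axis), with 3 points and a mean bar per condition. LSM14A falls from above 6 to about 3 with siLSM14A, whereas each partner stays near its siCTRL level, with LSM14B slightly lower and DCP2 slightly higher.

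The question put to the 8 partners, DCP1A not among them, was whether any rose when LSM14A was lowered. In the main edgeR fits none was called higher in total RNA, polysomal RNA or TE, in NT, in HU or averaged over both. Of all genes, 0.175%, 0.24% and 1.56% were called higher in total RNA in these 3 comparisons and 0 in the others. DESeq2 called 1 partner higher, DCP2, in total RNA of NT cells and averaged over NT and HU. In NT, DESeq2 called 87 genes higher in all, against 22 by edgeR. The DESeq2 count over all genes in the average is not given here. With some alternative settings edgeR also called DCP2 higher in the average. These were the GC correction, the replicate block, both together, and the fit without siCTRL HU replicate 3. The partner that was called in the main edgeR fits, LSM14B, fell.

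LSM14B, the paralog (chr20:60697517-60710430, plus strand), was lower in every siLSM14A library than in every siCTRL library of the same treatment in total RNA. It had 41.2, 40.4 and 40.2 CPM in siCTRL NT against 35.0, 35.7 and 36.5 CPM in siLSM14A NT. In HU it had 46.0, 43.0 and 41.2 CPM with siCTRL against 36.9, 36.1 and 37.6 CPM with siLSM14A. Groups that do not overlap in this direction were found for 8.08% of 12855 genes in NT and 6.28% in HU. Averaged over both treatments, LSM14B fell by 13.7% (log2 difference -0.21, SE 0.0380, adjusted p = 0.0036), in a comparison in which 3.13% of all genes were called and 1.58% were called lower. Taken alone, neither treatment reached the threshold (log2 difference -0.18, adjusted p = 0.22 in NT, and -0.24, adjusted p = 0.14 in HU). With the replicate number as a block, LSM14B was called in HU too (log2 difference -0.24, adjusted p = 0.0010), beside 855 of all genes in place of 100. Same-numbered libraries met the correlation rule for pairing in this HU comparison, which does not show that they shared a culture. In polysomal RNA the averaged log2 difference of LSM14B was -0.22 with a 95% interval of -0.46 to 0.01 (unadjusted p = 0.060), and in TE it was -0.02 (interval -0.25 to 0.20).

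The makeup of the LSM14 pair differed widely between the siRNAs. Per exon length, LSM14B made up 39.2 ± 0.968% of LSM14A and LSM14B mRNA together in total RNA of siCTRL NT cells (n = 3) and 86.4 ± 1.17% in siLSM14A NT cells. In HU these shares were 40.4 ± 2.51% and 87.9 ± 1.46%. Their sum was 116.6 ± 3.04 TPM in siCTRL NT and 47.1 ± 1.64 TPM in siLSM14A NT, and 120.5 ± 5.04 and 47.0 ± 2.01 TPM in HU. The sum was thus lower with siLSM14A in both treatments. In polysomal RNA LSM14B already held the larger share in control cells, 59.8 ± 9.68% in NT and 64.1 ± 6.58% in HU, and held 96.2 ± 1.21% and 96.0 ± 0.323% with siLSM14A. The summed polysomal level was 92.4 ± 5.28 TPM in siCTRL NT and 46.2 ± 5.60 TPM in siLSM14A NT. In the siCTRL NT polysomal libraries the share of LSM14B ran from 50.2 to 69.6% and was thus the most variable of the 8 groups. These shares follow from the knockdown of the target itself and carry no test.

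**Figure D2:**
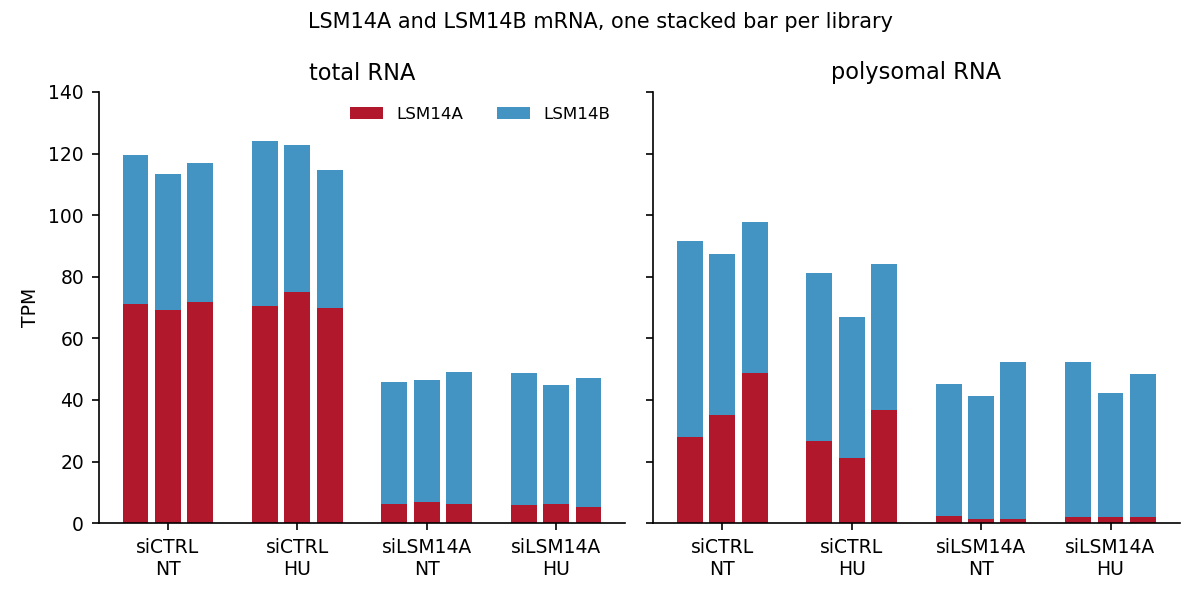
LSM14A (red) and LSM14B (blue) mRNA in TPM, stacked in 1 bar per library and grouped by condition, in total RNA (left) and polysomal RNA (right). The summed level is 113 to 124 TPM in every siCTRL total RNA library and 44.8 to 49.0 TPM in every siLSM14A one, of which 85.2 to 89.1% is LSM14B.

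Among the repression factors, DDX6, the helicase to which LSM14A binds directly, was the one with a nominal difference. DDX6 (chr11:118618472-118661873, minus strand) had 80.7, 80.0 and 80.6 CPM in total RNA of siCTRL NT and 83.4, 91.8 and 89.8 CPM in siLSM14A NT. In HU it had 77.7, 84.9 and 77.1 CPM with siCTRL and 79.9, 87.4 and 86.3 CPM with siLSM14A, and there the groups overlapped. The averaged log2 difference was 0.10 (SE 0.0396, unadjusted p = 0.019, adjusted p = 0.21), a 95% interval of 1.01 to 1.14-fold. In polysomal RNA DDX6 was among the more scattered genes, with 61.9, 55.4 and 84.5 CPM in siCTRL NT and 82.0, 38.6 and 61.2 CPM in siLSM14A NT. In HU all siLSM14A values (68.5, 71.7 and 69.7 CPM) stood above those of siCTRL (64.7, 40.8 and 58.6 CPM), as did those of 4.72% of 12855 genes, with a log2 difference of 0.36 (unadjusted p = 0.058).

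PATL1 and EIF4ENIF1 stayed within narrow bounds in total RNA. PATL1 (chr11:59404189-59436510, minus strand) ranged from 78.5 to 86.2 CPM over the 12 libraries, and its averaged log2 difference was 0.03 (interval -0.04 to 0.10). In HU its siLSM14A values (86.2, 83.8 and 84.8 CPM) all stood above those of siCTRL, the highest of which was also 83.8 CPM, with a log2 difference of 0.05 (unadjusted p = 0.40). EIF4ENIF1 (chr22:31832963-31892094, minus strand), which carries DDX6 and eIF4E and can hold an mRNA in a silent state, had 25.1 to 26.8 CPM in siLSM14A and 23.4 to 28.4 CPM in siCTRL, with a difference of -0.06 (interval -0.16 to 0.05). At 95%, these intervals leave room for a rise of PATL1 of at most 1.08-fold and of EIF4ENIF1 of at most 1.03-fold in total RNA.

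Of the decapping genes, DCP2, the enzyme itself (chr5:112312399-112357892, plus strand), had the largest positive difference of the 8 partners in total RNA. It had 31.9, 33.5 and 31.5 CPM in siCTRL NT and 40.0, 38.5 and 37.9 CPM in siLSM14A NT, so that the groups did not overlap, as for 9.04% of genes in this direction. In HU it had 27.5, 32.4 and 35.0 CPM with siCTRL and 33.8, 33 and 37.5 CPM with siLSM14A, and the groups overlapped. The log2 difference was 0.26 in NT (SE 0.0568, unadjusted p = 8.5e-04, adjusted p = 0.088) and 0.13 in HU (SE 0.0895, adjusted p = 0.78), and 0.19 averaged over both (SE 0.0562, unadjusted p = 0.0035, adjusted p = 0.081). DCP2 thus missed the threshold in the main edgeR fits. DESeq2 called it in NT (adjusted p = 0.039) and averaged (adjusted p = 0.037), and edgeR called the average with the GC correction (adjusted p = 0.032), with the replicate block (0.039), with both together (0.027), and without siCTRL HU replicate 3 (0.027). In polysomal RNA the averaged log2 difference of DCP2 was 0.36 (interval 0.04 to 0.68, unadjusted p = 0.030, adjusted p = 0.98). DCP2 is the member with the lowest exon GC content, 37.71%.

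EDC3, EDC4 and DCP1B were not called in total RNA. EDC3 (chr15:74922899-74988633, minus strand) had 50.2 to 52.7 CPM in siCTRL NT and 50.6 to 52.0 CPM in siLSM14A NT, with an averaged log2 difference of 0.04 (interval -0.03 to 0.12). EDC4 (chr16:67906955-67918402, plus strand), the scaffold between DCP1 and DCP2, had 46.5 to 52.7 and 48.9 to 50.9 CPM, with 0.06 (interval -0.04 to 0.15). DCP1B (chr12:2055219-2113701, minus strand) had 7.26 to 7.69 and 7.31 to 7.64 CPM, with 0.04 (interval -0.09 to 0.17). In HU, EDC3 had 54.7 to 58.4 CPM with siLSM14A against 51.0 to 53.1 CPM with siCTRL (log2 difference 0.10, unadjusted p = 0.097, adjusted p = 0.69 by edgeR). DCP1B had 6.93 to 7.18 against 6.50 to 6.80 CPM there (0.08, unadjusted p = 0.42), and EDC4 51.3 to 54.9 against 46.9 to 54.9 CPM. The HU groups of EDC3 and DCP1B thus did not overlap and those of EDC4 did. Overlapping noncoding genes on the same strand share 22.65% of EDC4's exon bases, and CLK3 lies opposite 13.77% of EDC3's. Opposite-strand genes also share 8.67% of EIF4ENIF1's exon bases, 1.48% of PATL1's, 0.79% of DCP2's (MCC) and 0.44% of DDX6's. The reads of these stretches are uncertain.

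In total RNA, 3 of the 8 partners had an unadjusted p under 0.05 in NT (DCP2, DDX6 and LSM14B), where 10.8% of all genes did, and 1 in HU (LSM14B), where 8.54% did. All replicates were higher with siLSM14A than with siCTRL for 2 of the 8 partners in NT (DDX6 and DCP2), beside 9.04% of genes, and for 3 in HU (PATL1, EDC3 and DCP1B), beside 8.45%. Averaged over both, those with an unadjusted p under 0.05 were the same 3 partners as in NT, beside 15% of all genes. The median log2 difference of the 8 partners, averaged over NT and HU, was 0.04, and that of all genes tested was -0.0032. The intervals of the partners, averaged over NT and HU, reached at most a rise of 1.24-fold. Taken alone, they reached at most 1.31-fold in NT and 1.25-fold in HU. The interaction of siRNA and HU in total RNA was called for none of the 8 (lowest unadjusted p 0.14) and for 0 of 12666 genes by edgeR and by DESeq2, with 367 genes (2.9%) at an unadjusted p under 0.05 in edgeR.

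In polysomal RNA and TE no partner was called by edgeR or DESeq2, and the precision was lower. Averaged over NT and HU, 1 of 8 partners had an unadjusted p under 0.05 in polysomal RNA, DCP2, beside 4.29% of all genes, and 0 of 8 in TE, beside 1.09%. The averaged log2 intervals in polysomal RNA had half-widths of 0.20 to 0.43, against 0.07 to 0.13 in total RNA. A polysomal rise of up to 1.61-fold thus lay within them, and of up to 1.78-fold in NT alone and 1.85-fold in HU alone. EDC4 was the most scattered: its polysomal level was 120.5, 75.7 and 154.2 CPM in siLSM14A NT and 157.5, 275.0 and 112.9 CPM in siLSM14A HU, against 132.6 to 211.0 CPM in the 6 siCTRL libraries. EDC4 has the highest exon GC content of the set, 59.46%, and the siLSM14A HU library with the highest EDC4 value was also the one with the highest correlation with GC among the polysomal libraries (0.62). In the siLSM14A NT library with the lowest EDC4 value this correlation was 0.48. The part of GC content in the scatter of EDC4 was not tested. The TE difference of EDC4 was -0.30 (interval -0.77 to 0.17) and -0.22 with the GC correction.

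**Figure D3:**
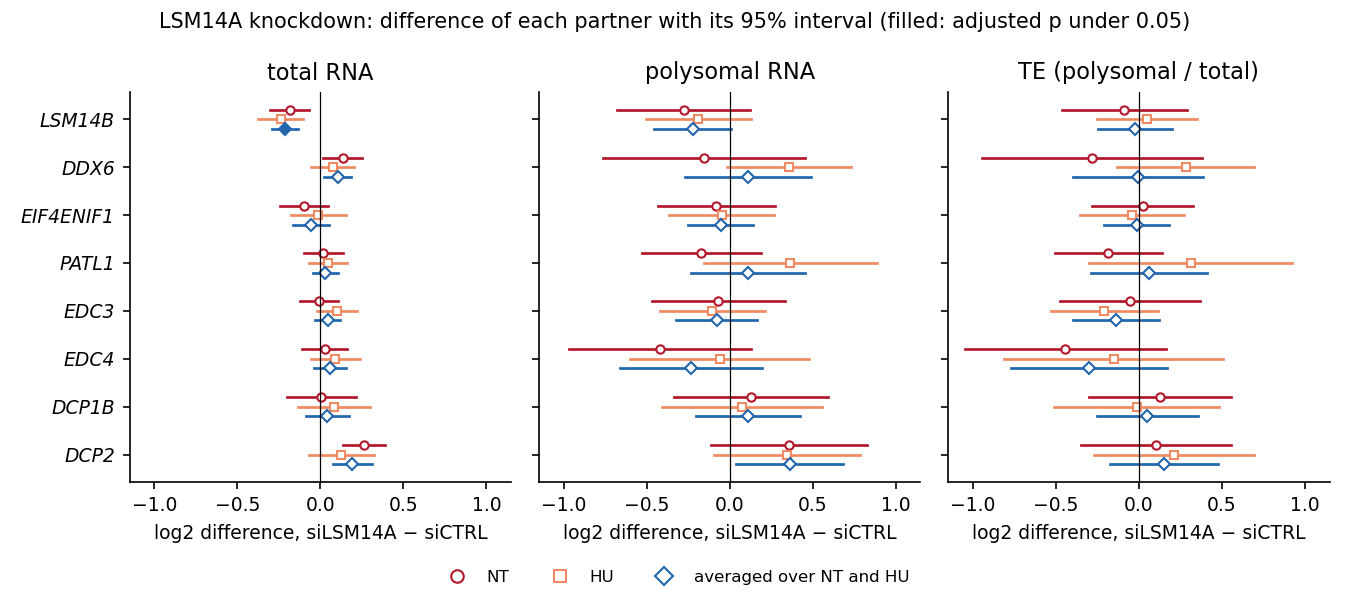
Log2 difference of siLSM14A against siCTRL (x axis) for the 8 partners (y axis) in total RNA, polysomal RNA and TE, with 95% intervals, in NT, in HU and averaged over both. The averaged LSM14B difference in total RNA, -0.21, is the single filled point (adjusted p under 0.05), and the polysomal and TE intervals are wider than those of total RNA.

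The 9 mRNAs were spread widely between heavy polysomes and total RNA already in control cells. In siCTRL NT, 5 of the 9 differed between the fractions at an adjusted p under 0.05, and so did 63.8% of all genes tested (31.4% higher and 32.3% lower in polysomes), a share near that of the 9 genes. Without siCTRL NT replicate 2, 3654 genes were called in place of 7927. Higher or lower in polysomes means relative to the average gene here, since TMM scaling centres each library. EDC4 and EDC3, the decapping enhancers, were enriched in polysomes: EDC4 had 48.8, 46.5 and 52.7 CPM in total and 180.9, 154.6 and 132.6 CPM in polysomal RNA, and EDC3 52.5, 50.2 and 52.7 CPM against 118.5, 121.3 and 79.6 CPM. Their log2 differences were 1.66 (SE 0.136, adjusted p = 1.7e-04) and 1.04 (SE 0.164, adjusted p = 0.0010). In TE, EDC4 ranked at the 99.5th percentile of 12855 genes and EDC3 at the 92.6th. DCP2 was at the opposite end, with 31.9, 33.5 and 31.5 CPM in total and 13.6, 15.1 and 20.6 CPM in polysomal RNA (log2 difference -0.98, SE 0.165, adjusted p = 0.0013), at the 13.3rd percentile. LSM14A (-0.93, SE 0.170, adjusted p = 0.0019) and PATL1 (-0.70, SE 0.120, adjusted p = 0.0014) were lower in polysomes as well. Without a GC correction, the enzyme and its enhancers thus stood far apart on this scale. With the correction given below, the distance was smaller and DCP2 was not the lowest of the 9 genes.

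The paralogs LSM14A and LSM14B differed in the same measure, with a log2 TE of -0.95 ± 0.314 and 0.27 ± 0.223 (SD, n = 3), and without overlap of their replicates. The partners DDX6 (-0.26), DCP1B (-0.30), EIF4ENIF1 (0.24) and LSM14B (0.28) were not called between the fractions, although DDX6 (-0.44) and LSM14B (0.40) were called without siCTRL NT replicate 3. The difference between fractions followed exon GC content across all genes tested (Spearman's rho = 0.66, 12431 genes, which are not independent replicates), and EDC4, LSM14B and EDC3 are the members richest in GC. With a GC correction the difference was 0.99 for EDC4, 0.67 for EDC3, -0.53 for PATL1, -0.45 for LSM14A and -0.26 for DCP2, all still called. LSM14B turned to -0.26 (adjusted p = 0.021), and DDX6 (0.20) and DCP1B (0.05) changed sign without a call.

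**Figure D4:**
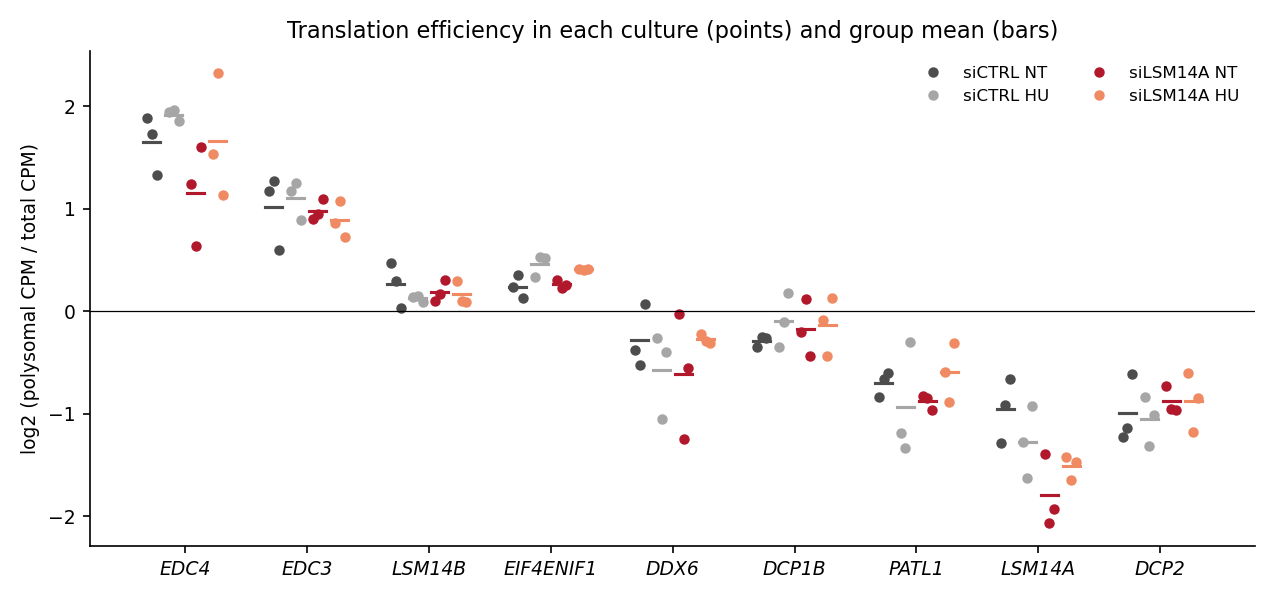
Log2 of polysomal over total CPM (y axis) for each gene in each replicate, with 3 points and a mean bar per condition, ordered by siCTRL NT. Each point joins the total and polysomal libraries of the same condition and replicate number. EDC4 and EDC3 lie above 0 and DCP2, LSM14A and PATL1 below it in all 4 conditions, and the siLSM14A NT points of LSM14A lie below its siCTRL NT points. The 0 is set by the TMM scaling, near the average gene.

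HU alone left the 9 genes without a call. In siCTRL cells the log2 differences of HU against NT in total RNA ran from -0.15 for DCP1B (interval -0.37 to 0.06) to 0.10 for LSM14B (interval -0.03 to 0.23), and the lowest unadjusted p among the 8 partners was 0.13. LSM14A itself differed by 0.03 (interval -0.10 to 0.16). LSM14B was higher, if narrowly, in all 3 siCTRL HU libraries than in all 3 siCTRL NT libraries, as were 2.85% of 12855 genes, and DCP1B was lower in all 3, as were 2.6%. In siLSM14A cells DCP2 had the lowest unadjusted p of edgeR (0.032, log2 difference -0.16, adjusted p = 0.85), beside 5.2% of all genes with an unadjusted p under 0.05. There DCP2 and DCP1B were lower in all 3 HU libraries than in all 3 NT libraries, as were 5.65% of genes, and EDC3 (log2 difference 0.12, unadjusted p = 0.058) and EDC4 (0.08, unadjusted p = 0.17) were higher in all 3, as were 6.11%. No tested gene was called for HU in the main edgeR fits of either siRNA. These fits had 180 of 12506 genes (1.44%) in siCTRL and 650 of 12497 genes in siLSM14A at an unadjusted p under 0.05. DESeq2 called 1 gene in siCTRL and 0 in siLSM14A. In siCTRL, edgeR called 15 genes with the replicate block and 26 with the block and the GC correction. Leaving out 1 replicate gave up to 6 genes in either siRNA.

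In polysomal RNA the HU differences of the partners in siCTRL cells ran from -0.30 for DDX6 to 0.28 for EDC4, and in siLSM14A cells from -0.14 for DCP2 to 0.62 for EDC4 (interval -0.08 to 1.32). EIF4ENIF1 was the one partner whose siLSM14A HU replicates (33.9 to 35.5 CPM) all exceeded the NT ones (29.7 to 33 CPM), as for 2.18% of genes. In TE no partner had an unadjusted p under 0.05 for HU in either siRNA (lowest 0.16 in siCTRL and 0.13 in siLSM14A), where 2.31% and 1.41% of all genes did. The log2 TE of EIF4ENIF1 was 0.41, 0.40 and 0.41 in siLSM14A HU and 0.30, 0.23 and 0.26 in siLSM14A NT. It was higher in all 3 HU replicates, as for 2.01% of genes, with a fitted difference of 0.14 (interval -0.15 to 0.43). These polysomal HU contrasts followed GC content in siCTRL cells (rho = 0.60 across 12315 genes).

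Around the 9 genes, the rest of the pathway was taken as 4 lists. Of the 5′ to 3′ decay machinery outside the members, 14 of 16 genes were tested, and averaged over NT and HU 1 was called in total RNA. This was LSM7, a subunit of the LSM1-7 ring, which fell (log2 difference -0.37, SE 0.0662, adjusted p = 0.0039). The median of the list was -0.0067 beside -0.0032 over all genes. The other genes of the ring and the exonuclease XRN1 were not called.

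The list of cap binding and eIF4F genes (13 of 15 tested) held 2 that fell and none that rose, with a median of -0.04. EIF4E2 (4EHP), a cap-binding protein that competes with eIF4E and represses translation, fell in NT (log2 difference -0.33, SE 0.0564, adjusted p = 0.033), in HU (-0.35, SE 0.0571, adjusted p = 0.011) and averaged (-0.34, SE 0.0391, adjusted p = 5.5e-05). It had 94.8 to 96.1 CPM in siCTRL NT and 73.2 to 81.4 CPM in siLSM14A NT, and 96.2 to 106.0 against 77.1 to 80.3 CPM in HU. It was the one gene of the 4 lists called in both treatments. Its averaged adjusted p was at most 3.4e-04 when single libraries were left out, but the call in NT was lost without siCTRL NT replicate 1 (adjusted p = 0.074), 2 (0.13) or 3 (0.21) or siLSM14A NT replicate 1 (0.14), and that in HU without siCTRL HU replicate 2 (0.077). PABPC4, a cytoplasmic poly(A)-binding protein, fell by 13.3% on average (log2 difference -0.21, SE 0.0484, adjusted p = 0.025). This call was lost in 8 of the 12 fits that left out 1 library (adjusted p up to 0.075), and was kept without replicate 3 of siCTRL NT, siCTRL HU or siLSM14A NT or without siLSM14A HU replicate 1.

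Of the deadenylation and miRNA repression genes, 23 of 23 were tested and 1 was called, TNRC6A, the GW182 scaffold of miRNA repression, which rose (0.14, SE 0.0373, adjusted p = 0.046). Of the 12 fits that left out 1 library, the one without siCTRL HU replicate 1 kept the TNRC6A call and the other 11 lost it (adjusted p up to 0.13). The list's median was 0.01. Of the other P-body and repression RNA-binding proteins, 20 of 21 were tested. The cytoplasmic polyadenylation element-binding proteins CPEB2 (0.29, SE 0.0506, adjusted p = 0.0034) and CPEB4 (0.31, SE 0.0635, adjusted p = 0.011) rose. IGF2BP3, an mRNA-binding protein that stabilises its targets, fell (-0.21, SE 0.0486, adjusted p = 0.024). The IGF2BP3 call was lost without replicate 1 of siCTRL NT, siCTRL HU or siLSM14A NT, without siLSM14A NT replicate 2 or without siLSM14A HU replicate 2 or 3 (adjusted p up to 0.068). Those of CPEB2 and CPEB4 were kept without any single library. The median of this list was -0.02. These 7 genes are of the 70 tested on the 4 lists, beside 3.13% of all genes, and none of the 4 lists had a gene called in polysomal RNA or TE for siLSM14A against siCTRL. The word AACGGAG was found in the canonical transcripts of IGF2BP3 and TNRC6A, 1 lower and 1 higher with siLSM14A, and not in those of the other 5.

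**Figure D5:**
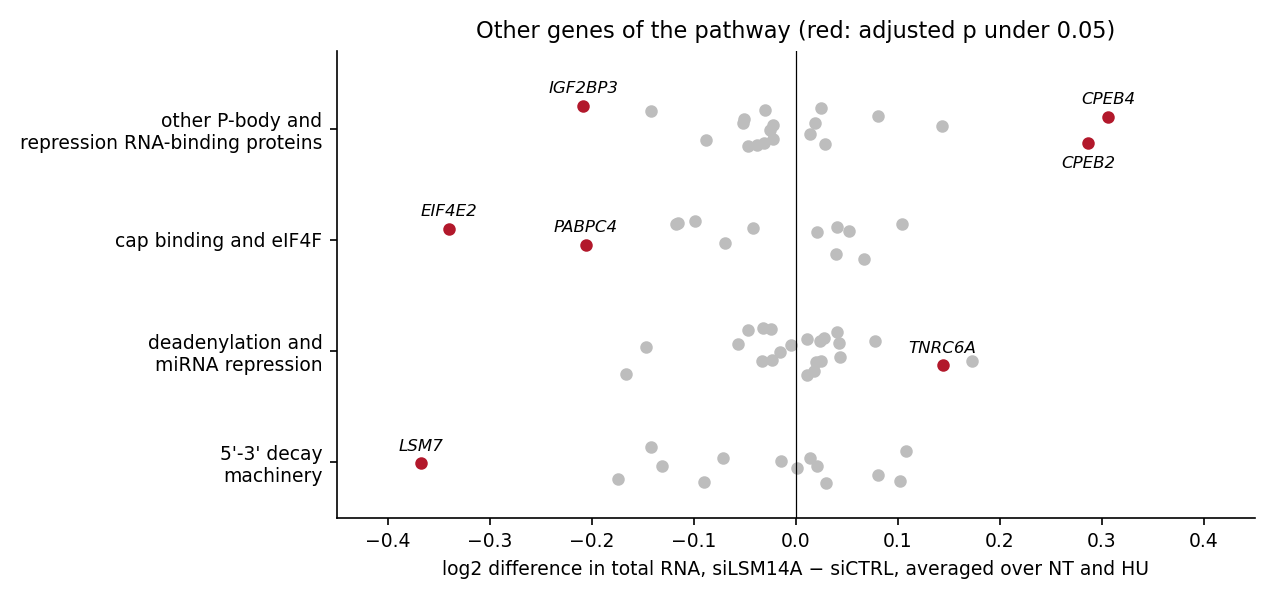
Log2 difference in total RNA averaged over NT and HU (x axis) for each tested gene of the 4 pathway lists (rows), with the 7 genes past the adjusted p of 0.05 in red and named. Most genes lie between -0.2 and 0.2, EIF4E2 and LSM7 lie lowest and CPEB2 and CPEB4 highest.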

How the data were processed

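Total and heavy-polysome RNA of A2058 cells was sequenced as stranded, paired-end mRNA libraries. After adapter trimming by the authors, STAR (2.6.1a per the labels) aligned the reads to hg19 and counted them on Gencode genes, and the deposited table holds the raw counts. The strand setting of the counting is not given in the sources used here. Samples were grouped by their titles, 3 replicates in each of 8 groups. Genes were named from a GENCODE annotation of hg19: 19637 of 20345 IDs matched, 19086 of them protein-coding, and the unmatched IDs held 0.316 to 0.366% of counts. All columns of the table were used.

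Protein-coding genes entered edgeR 4.0.16 in R 4.3.3 (filterByExpr at its defaults, a count of 10 and a total of 15, then TMM and the quasi-likelihood F-test). P-values were adjusted by Benjamini-Hochberg over all genes tested, and a gene was called at an adjusted p under 0.05. A TE difference was the fraction by condition interaction term, since Xtail, the tool of the study, was not at hand. Per-replicate log2 TE joined libraries with the same condition and replicate number, with 0.1 CPM added, and CPM used TMM factors over all 24 libraries. Intervals are at 95%. The fits were run on simulated counts in which the changes set were larger than the partners' differences between the siRNAs. That run does not show whether differences as small as these would be found. The members, the pathway lists and the word AACGGAG were chosen with earlier results of these data known. One result among the genes whose profile was most like that of LSM14A is not reported here. All members are named, and from each list up to 3 called genes per direction and comparison of siLSM14A with siCTRL.

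Alternatives were DESeq2 1.42.0, RLE size factors, an unfiltered table, a floor of 10 counts per library and all genes. Others were the replicate number as a block, a GC correction (loess, span 0.3) and both together. For TE a block of condition and replicate number was also used. The rest were all libraries in one fit, each replicate left out, and the longest transcript for TPM. The main fits held no replicate block. The rule for pairing was that all 3 correlations of same-numbered deviations exceeded 0.1. This held for siLSM14A against siCTRL in total RNA of HU cells (0.33, 0.18 and 0.25) and for HU against NT in siCTRL cells, in total (0.27, 0.25 and 0.19) and polysomal libraries (0.25, 0.18 and 0.45). The rule was not met for siLSM14A against siCTRL in total RNA of NT cells (-0.25, 0.26 and -0.22). The labels do not state what a number shares, and the rule does not show that same-numbered libraries shared a culture. Over 24 replicate pairs the chi-square per gene was 6.16 to 121.3, so no 2 libraries agreed within sampling noise. TPM used merged exon lengths, and counting error limits LSM14A in siLSM14A polysomal libraries and DCP1B most.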

Additional observations from a re-analysis of the deposited data

How the results depend on the processing

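Across the 19 comparisons and their alternatives, the number of the 9 genes called differed in these cases and stayed the same in the others. In total RNA of NT cells 2 were called in place of 1 with DESeq2, which added DCP2 (2 genes). In total RNA of HU cells it was 2 in place of 1 with the replicate block, the GC correction, both together and all libraries in one fit (2 genes each), which added LSM14B with adjusted p = 0.0010, 0.030, 0.0016 and 0.041. In the average, 3 were called in place of 2 with DESeq2, the block, the GC correction and both together, each adding DCP2. Between the fractions, 6 were called in place of 5 with the GC correction, which added LSM14B. The replicate block changed no other call among the partners than these and the averaged DCP2 value. No main fit held this block. It is given as an alternative only, also in the comparisons that met the pairing rule. Leaving out 1 replicate at a time kept 1 gene called for siLSM14A in either treatment alone, gave 2 to 3 in the average and 5 to 7 between the fractions, where DDX6 (-0.44) and LSM14B (0.40) were called without replicate 3.

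The sign turned in the comparison of fractions with the GC correction for LSM14B (-0.26), DDX6 (0.20) and DCP1B (0.047), and with the replicate block added (-0.26, 0.20 and 0.048). It turned in averaged polysomal RNA for DDX6 without siLSM14A NT replicate 1 (-0.034, range -0.034 to 0.24). DCP2 between fractions missed the threshold with block and GC correction together (-0.26, adjusted p = 0.051). Of the pathway genes, EIF4E2 in NT lost its call with the replicate block (adjusted p = 0.083) and without any of 4 libraries (up to 0.21), and in HU without 1 (0.077). IGF2BP3 in HU lost it in one fit (0.074) and in 5 of the 6 fits without 1 library (up to 0.23). Leaving out single libraries raised the averaged adjusted p to at most 0.068 for IGF2BP3, 0.075 for PABPC4 and 0.13 for TNRC6A, and TNRC6A also lost its call without the filter (0.052).

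Counts over all genes moved more. For total RNA in NT (71 genes) they were 187 with DESeq2, 119 with the GC correction, 131 in one fit, 45 with the replicate block and 28 to 80 leaving out 1 replicate. In HU (100) they were 189 with DESeq2, 159 with the GC correction, 855 with the replicate block, 647 with both and 46 to 101. Averaged (397) they were 732 with the block, 653 with the GC correction, 927 with both and 264 to 379. In polysomal RNA they were 8, 4, 5 and 7 against 2 in NT (DESeq2, no filter, GC correction, one fit), 20, 40 and 17 against 8 in HU (DESeq2, block, both) with 2 to 8 leaving out a replicate, and 38, 34 and 42 against 16 averaged (DESeq2, GC correction, both). For HU against NT in siCTRL they were 1, 15 and 26 against 0 in total RNA (DESeq2, block, both) and 1 in polysomal RNA with the block. For HU against NT with either siRNA, leaving out 1 replicate gave up to 6 in total RNA and up to 2 in polysomal RNA. TE of HU in siLSM14A gave 16 without siLSM14A NT replicate 1. Between fractions, 3654 against 7927 genes were called without siCTRL NT replicate 2. The causes were not tested.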
